A study of Mus musculus with 26 samples.

Results

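The 9 genes described here belong to the BCL2 family, and they were taken by name from a liver count table that holds 36883 gene names. Bcl2, Bcl2l1 and Mcl1 encode anti-apoptotic proteins, Bak1 encodes a pro-apoptotic effector, and Bcl2l11, Bid, Bad, Bik and Bmf encode pro-apoptotic BH3-only proteins. All 9 were found in the table and all 9 passed the filter on low counts, together with 16892 genes in all. Every mouse carried the Eµ-MYC transgene, in which an immunoglobulin heavy chain enhancer drives MYC in B-lineage cells, so the transgene is aimed at lymphocytes and not at the cells that make up most of the liver. The 12 animals under chronic jet lag (8 females and 4 males, the males numbered 5 to 8) were set against 14 animals under 12 hours of light and 12 hours of dark (8 females and 6 males), each kept so for 8 weeks. No mice without the transgene were analysed here, and the sources used here do not state the shift schedule, the age of the mice or the hour of dissection.

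BCL2 proteins decide whether the outer membrane of the mitochondrion is opened. BAK and its partner BAX form the pores, the anti-apoptotic proteins hold them in check, and the BH3-only proteins sense damage or loss of growth signals and bind one side or the other. In the mouse liver BCL-xL (the product of Bcl2l1) and MCL1 are both needed to keep hepatocytes alive. In Eµ-MYC B cells, loss of BIM (the product of Bcl2l11) or extra BCL2 speeds the growth of lymphoma.

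The libraries held 45364552 to 50242014 counts, and CPM is the count of a gene scaled to its library's column sum. A count of 0 allows up to 3 counts, or 0.0597 to 0.0661 CPM, a limit for counting error only. Expression is given in CPM unless another scale is named. Markers of hepatocytes summed to 136400 to 251310 CPM, the level of liver tissue, but 8 libraries stood apart in Cd79a, which encodes a signalling chain of the B cell receptor. These 8 held 14.5 to 144 CPM of Cd79a and the other 18 held 1.28 to 2.95 CPM. The 8 were spread over the groups: jet lag females 2, 5 and 6, jet lag male 8, 12:12 females 6 and 7, and 12:12 males 3 and 5, which makes 4 under each lighting. In bulk liver a smaller share of cells of a type and less RNA per cell cannot be told apart.

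The genes lie at chr1:106538176-106714290 (Bcl2), chr2:152758732-152833803 (Bcl2l1) and chr3:95656944-95663179 (Mcl1) on build GRCm38.p6. Bak1 lies at chr17:27019812-27028627, Bcl2l11 at chr2:128126038-128162547 and Bid at chr6:120893119-120917062. Bad lies at chr19:6941861-6951905, Bik at chr15:83526790-83544635 and Bmf at chr2:118528757-118549686. The counts are given per gene name, so no isoform can be told apart.

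In the 250 bases before their annotated starts, the promoters of Bcl2l11 and Bmf, the BH3-only genes with the widest fold range from the lowest to the highest library, read as follows (RefSeq, build GRCm38.p6). Capitals mark GTAAACA, a motif of forkhead factors, at 227 bases before the start in Bcl2l11, and AGGTCA, a motif of ROR and REV-ERB nuclear receptors, at 140 bases before the start in Bmf.
Bcl2l11, chr2:128125788-128126037, plus strand: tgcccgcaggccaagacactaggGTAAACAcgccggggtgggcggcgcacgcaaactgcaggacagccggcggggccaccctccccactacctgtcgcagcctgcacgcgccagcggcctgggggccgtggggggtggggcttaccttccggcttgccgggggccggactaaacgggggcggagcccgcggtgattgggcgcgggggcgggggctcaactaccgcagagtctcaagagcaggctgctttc
Bmf, chr2:118549687-118549936, minus strand: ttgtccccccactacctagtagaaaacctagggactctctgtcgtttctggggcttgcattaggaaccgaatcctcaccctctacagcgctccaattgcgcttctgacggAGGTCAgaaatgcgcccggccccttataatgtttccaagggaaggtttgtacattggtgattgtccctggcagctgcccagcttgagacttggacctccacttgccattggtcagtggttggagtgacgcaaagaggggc
On either strand GTAAACA stood in 3.17% and AGGTCA in 14% of 32851 promoter windows of the same length. Of the 14 windows of the 8 members that have one, GTAAACA stood in 1 (Bcl2l11) and AGGTCA in 2 (Bcl2l1 and Bmf). The E-box CACGTG, found in 6.02% of the 32851 windows, and the D-box TTATGTAA, found in 0.819%, were in none of the 14. These matches are a description of the letters, and the 4 motifs were chosen after the sequences had been seen.

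Levels between genes can be set side by side only per length of transcript. On the scale of median CPM per kilobase of exon, with exons from the GENCODE annotation of the same build, Mcl1 stood at 8.62, Bcl2l1 at 7.38, Bak1 at 4.62, Bad at 4.15, Bid at 2.24 and Bik at 1.67. Bmf (0.514), Bcl2l11 (0.236) and Bcl2 (0.0303) followed far below. Among the 9 members, the transcripts of Mcl1 and Bcl2l1 were thus highest on the anti-apoptotic side and those of Bak1 and Bad on the pro-apoptotic side. Bcl2 itself was near the limit of counting, with 3 to 43 counts in a library. The lowest of these, in jet lag male 6, was 0.0609 CPM with an exact Poisson interval (95%, counting error only) of 0.0126 to 0.178 CPM, and the highest, in 12:12 female 7, was 0.916 CPM with an interval of 0.663 to 1.23 CPM. Bid, Bad and Bak1 overlap Bcl2l13, Gpr137 and Ggnbp1 on the other strand, and since the sources used here do not state whether strand was used in counting, some of their reads cannot be told apart.

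**Figure D1:**
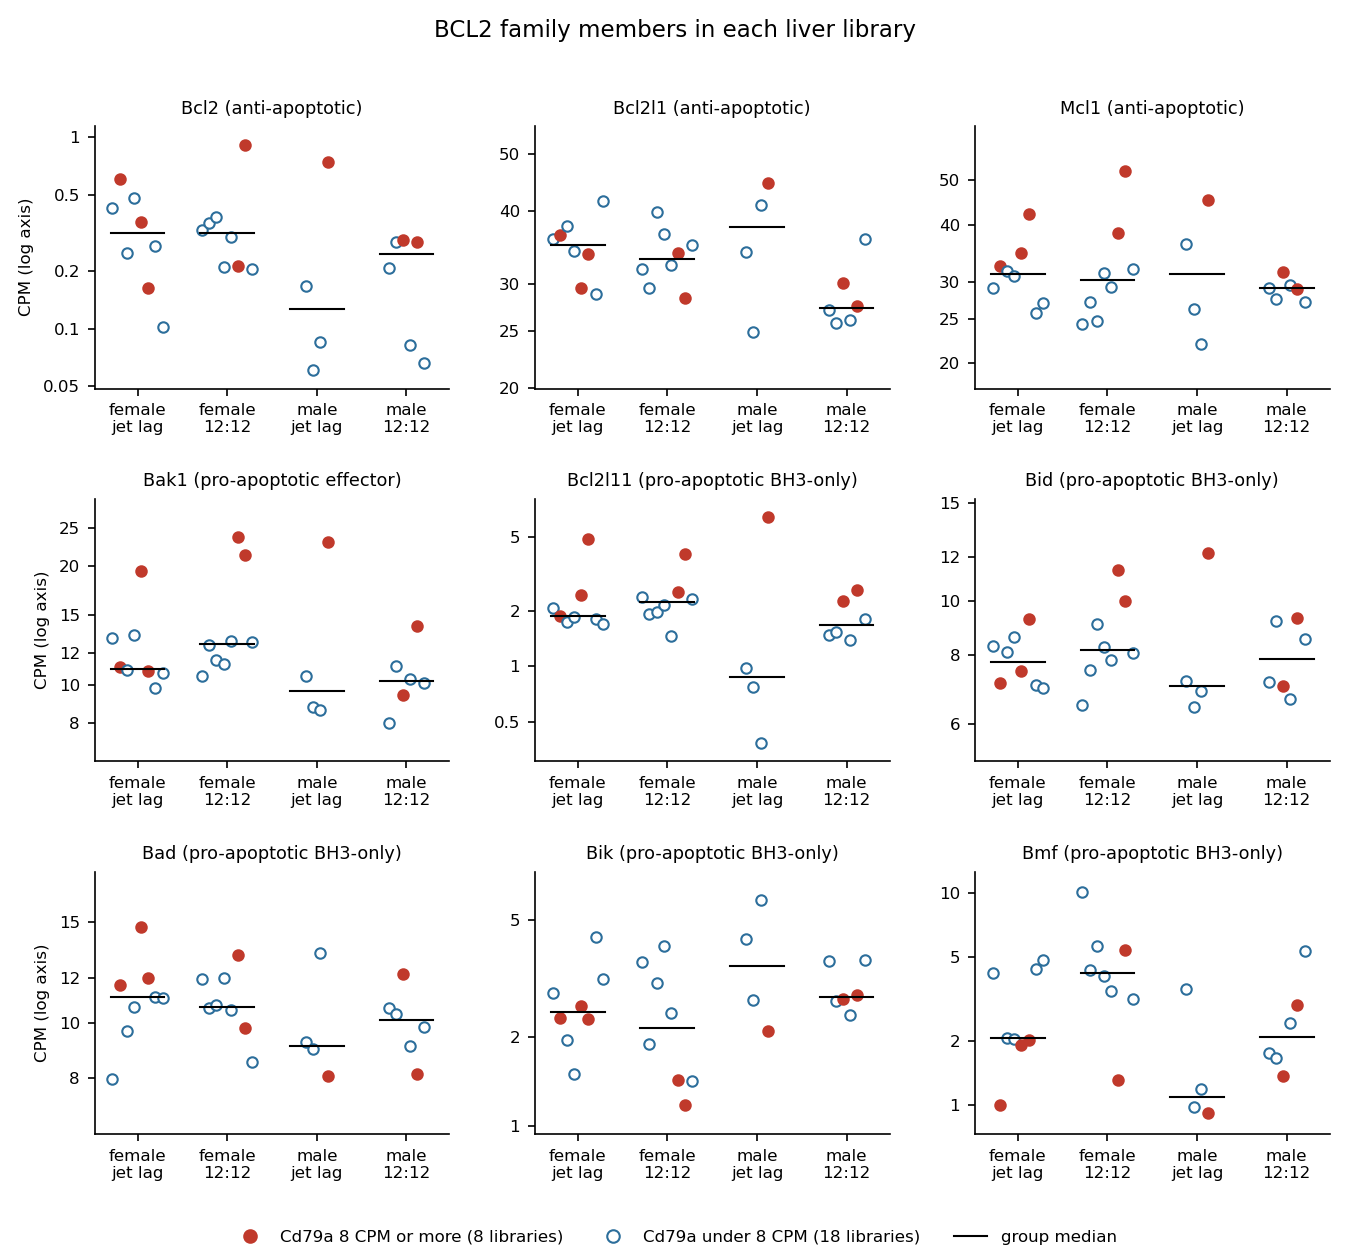
CPM of each member in every library on a log axis, in jet lag females (8), 12:12 females (8), jet lag males (4) and 12:12 males (6). Filled red points are the 8 libraries with Cd79a of 8 CPM or more, open blue points the other 18, and bars are group medians. The highest points for Mcl1, Bak1 and Bcl2l11 are red, while other red points lie among the blue ones, and 3 jet lag males lie lowest for Bcl2l11.

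The first question was how the family differed between livers with much and with little B-lineage RNA. Because the libraries were split by a measured value, the comparison is a description with no test. Of the 9 members 6 had a higher median in the 8 libraries with Cd79a of 8 CPM or more, with Bak1, Bcl2l11 and Mcl1 among them, while Bmf, Bik and, by little, Bcl2l1 had a lower one. No member separated the libraries fully: 0 of the 9 had ranges that did not overlap, beside 3.96% of all genes tested (3.94% higher and 0.0178% lower in the high libraries). The difference of the median log2 CPM, high libraries minus the rest, had a median of 0.28 over the 9 members and 0.11 over all genes tested. A higher median was common among all genes, since the difference of -0.09 for Bcl2l1 already stood at percentile 29.6. The count of 6 of 9 is therefore not read as a trait of the family.

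Among the anti-apoptotic members, Mcl1 had 29.0 CPM at its lowest, a median of 36.6 and 52.5 at its highest in the 8 high libraries, against 22.0, 28.4 and 36.4 CPM in the other 18. All 8 lay above the median of the 18, and 4 lay above their highest value. Bcl2l1 had 27.5, 32.0 and 44.6 CPM in the high libraries, against 24.9, 34.1 and 41.5 CPM in the rest, a difference of the median log2 CPM of -0.09. The values of Bcl2l1 therefore overlapped almost completely, and only 2 of the 8 high libraries were above the median of the rest. Bcl2 had 0.163, 0.326 and 0.916 CPM in the high libraries, against 0.0609, 0.230 and 0.485 CPM in the rest. For Bcl2, 3 of the 8 lay above every other library, at counts too low to order the remainder.

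The effector gene Bak1 had the largest positive difference of the 9 on the log2 scale, 0.62, at percentile 81 of all genes tested, beside percentile 77 for Bcl2l11 and 69.6 for Mcl1. Its levels were 9.42 CPM at the lowest, 16.8 at the median and 23.8 at the highest in the high libraries, against 7.97, 10.8 and 13.4 CPM in the rest. The 5 highest values, from 14.1 CPM upwards, all belonged to high libraries, while jet lag females 2 and 6 (11.1 and 10.8 CPM) and 12:12 male 3 (9.42 CPM) stayed within the range of the rest.

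Of the BH3-only genes, Bcl2l11 had 1.88, 2.55 and 6.46 CPM in the high libraries, against 0.383, 1.78 and 2.38 CPM in the rest, a difference of 0.51 on the log2 scale. Here 6 of the 8 high libraries lay above the highest of the rest, led by jet lag male 8 (6.46 CPM), jet lag female 6 (4.92 CPM) and 12:12 female 7 (4.07 CPM). Bid, whose protein is cut by caspase-8 and so links death receptors to mitochondria, had 7.04, 9.29 and 12.2 CPM in the high libraries, against 6.44, 7.66 and 9.20 CPM in the rest. Bid split the high libraries, with 5 above the highest of the rest and 3 below their median. Bad, which encodes a sensor of growth factor signals, differed by 0.16 on the log2 scale, with 1 of the 8 above the rest.

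Bmf, whose protein is known for being released from the cytoskeleton, had 0.911, 1.64 and 5.37 CPM in the high libraries, against 0.975, 3.50 and 10.1 CPM in the rest. Its difference of -1.09 on the log2 scale stood at percentile 1.65 of all genes tested, and 7 of the 8 high libraries were below the median of the rest. Within females the difference was -1.12, and within males it was only -0.35. The high library of 12:12 male 5 (2.96 CPM) lay above the median of the low-Cd79a males (1.75 CPM). Bik, which encodes a BH3-only protein of the endoplasmic reticulum, had 1.17, 2.31 and 2.78 CPM in the high libraries, against 1.42, 2.93 and 5.83 CPM in the rest. All 8 high libraries lay below the median of the rest for Bik, and its ranges still overlapped.

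**Figure D2:**
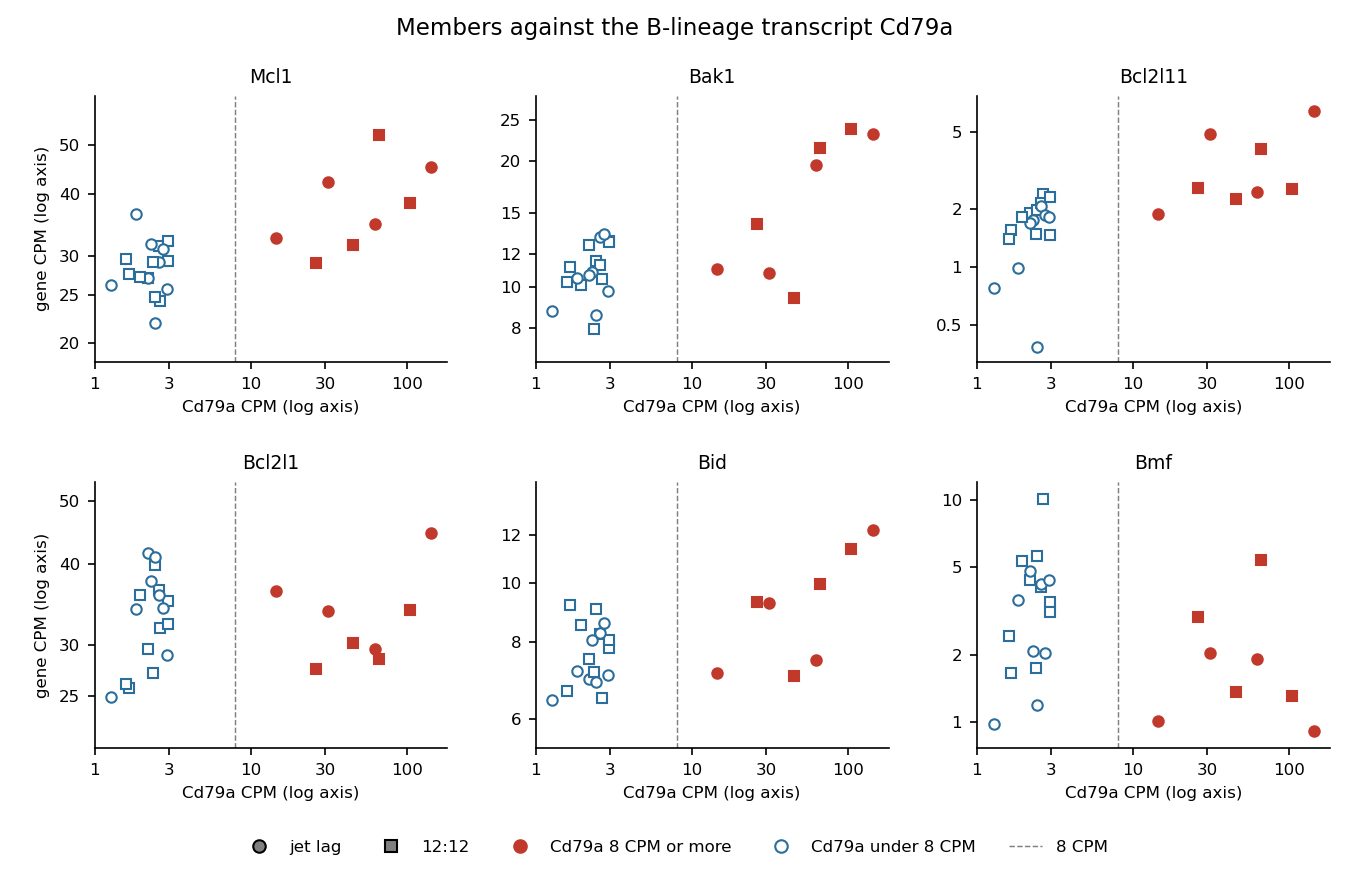
CPM of 6 members against Cd79a CPM, both on log axes, with circles for jet lag, squares for 12:12 lighting, red for the 8 libraries at or above the dashed line of 8 CPM and blue for the 18 below it. Mcl1, Bak1 and Bcl2l11 reach their highest values right of the line, Bcl2l1 lies at like levels on both sides, and Bmf is below the median of the blue libraries in 7 of the 8 red ones.

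The split was also described within each sex, and no difference between the sexes was tested. Bad differed by 0.17 on the log2 scale in females and by -0.28 in males. Bcl2l1 differed by -0.05 in females and by 0.15 in males, and the other members had the same sign in both sexes. Within females Mcl1 did not overlap, at 32.5, 38.3 and 52.5 CPM in 5 high libraries, against 24.3, 29.1 and 32.1 CPM in 11 others; 7.16% of genes tested were higher without overlap there. Within males Bcl2l11 had 2.26, 2.58 and 6.46 CPM in the 3 high libraries and at most 1.81 CPM in the other 7. Bcl2 also separated the males, at a lowest value of 0.28422 CPM in the high libraries and a highest of 0.28418 CPM in the others, a gap far inside counting error. With so few males 15.2% of genes tested were higher without overlap.

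Ratios between 2 members within a library do not depend on its scaling. Mcl1 over Bcl2l1 was 0.895 at its lowest, 1.09 at the median and 1.84 at its highest in the high libraries, against 0.537, 0.897 and 1.13 in the rest, and it was over 1 in 7 of 8 and in 5 of 18. Bak1 over Bcl2l1 was 0.305, 0.516 and 0.751 in the high libraries, against 0.210, 0.334 and 0.434 in the rest. Bcl2l11 over Bcl2l1 was 0.0518, 0.0881 and 0.145 in the high libraries, against 0.00935, 0.0539 and 0.0748 in the rest, with 5 of 8 above every other library. Of the ratios given here, Bcl2l11 over Bmf gave the widest split, at 0.758, 1.76 and 7.09 in the high libraries, against 0.236, 0.468 and 0.927 in the rest. It was over 1 in 6 of 8 and in 0 of 18. A wide split of this ratio follows from the differences of 0.51 for Bcl2l11 and -1.09 for Bmf on the same libraries. It adds nothing to them, and the split of ratios between other genes was not computed. Jet lag and 12:12 libraries were mixed on both sides of each split.

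**Figure D3:**
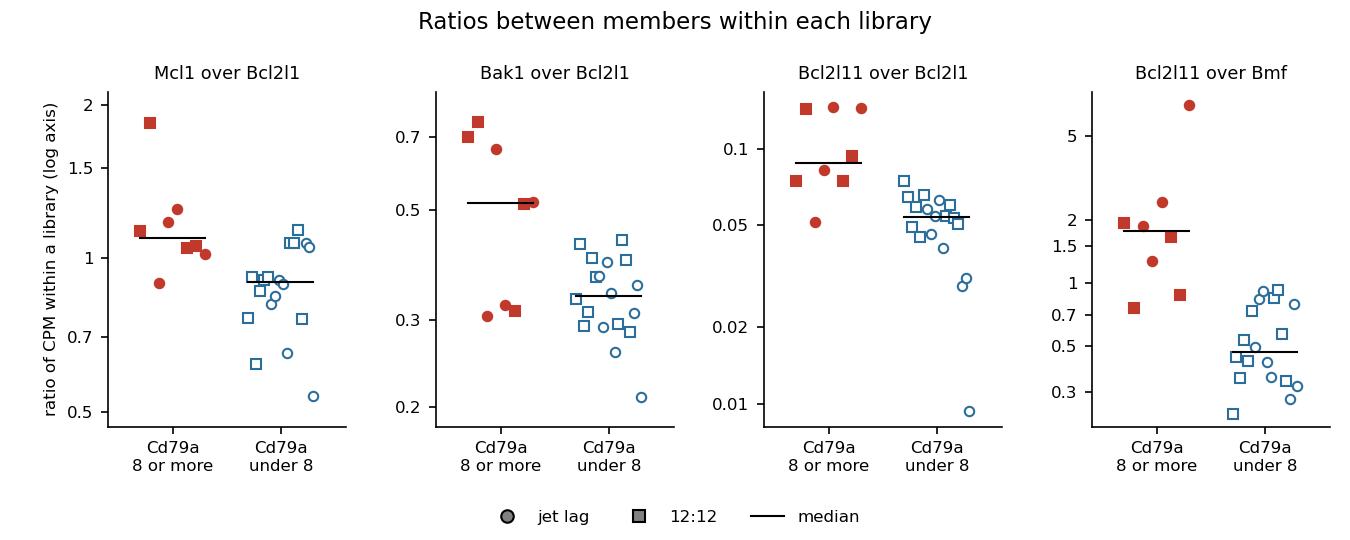
Ratio of the CPM of 2 members within each library on a log axis, for the 8 libraries with Cd79a of 8 CPM or more and the 18 under it, with circles for jet lag, squares for 12:12 lighting and bars at the medians. The ratio of Bcl2l11 to Bmf is over 1 in 6 of 8 red libraries and in none of the 18 blue ones. These 2 genes differ in opposite directions across the same split, so a wide split of their ratio follows.

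Markers of other cell types moved with the split. The summed B-lineage markers (18 genes) were 188 to 1290 CPM in the high libraries, against 50.5 to 143 CPM in the rest. Neutrophil markers (10 genes) summed to 7.16 to 453 CPM against 1.21 to 7.40 CPM, and T and NK cell markers (10 genes) to 8.10 to 28.2 CPM against 3.34 to 7.98 CPM. Of the T and NK cell markers 6 of 10 nevertheless had a lower median in the high libraries, among them Cd3d (0.282 against 0.510 CPM) and Cd8a (0.128 against 0.275 CPM), while Cd2 (4.21 against 0.910 CPM) and Lck (3.09 against 1.38 CPM) had the highest medians and were higher there. Macrophage and Kupffer cell markers (7 of 8 listed genes) summed to 447 to 2194 CPM against 230 to 498 CPM, erythroid markers (8 genes) to 1045 to 11771 CPM against 809 to 4652 CPM, and proliferation genes (10) to 73.7 to 886 CPM against 23.0 to 41.1 CPM. Hepatocyte markers (8 genes) summed to 167520 to 251310 CPM against 136400 to 182470 CPM. Alb had a median of 164850 against 131070 CPM, while 5 of the 8 had a lower median in the high libraries. Myc itself stood at 19.0 to 293 CPM against 2.68 to 22.4 CPM. The part of each of these in the differences of the BCL2 family was not tested.

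The second question was how the family differed between jet lag and 12:12 lighting. Over both sexes 0 of the 9 members passed the threshold (adjusted p of 0.05, edgeR quasi-likelihood test, Benjamini-Hochberg over all genes), beside 0.781% of all genes tested. At an unadjusted p of 0.05 there was 1, and the DESeq2 test also gave 0. The median log2 fold change of jet lag over 12:12 was 0.01 for the members and 0.02 for all genes tested.

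None of the anti-apoptotic genes differed beyond the spread between libraries. Mcl1 had 22.0, 31.3 and 45.3 CPM (lowest, median and highest) in the 12 jet lag libraries, against 24.3, 29.2 and 52.5 CPM in the 14 under 12:12 lighting. Its log2 fold change was 0.02 with a standard error (SE) of 0.09. Bcl2l1 had 24.9, 35.0 and 44.6 CPM under jet lag, against 25.7, 31.0 and 39.8 CPM under 12:12 lighting, with 9 of 12 jet lag libraries above the 12:12 median. The log2 fold change of Bcl2l1 was 0.14 ± 0.10 (SE, edgeR adjusted p = 0.893), and that of Bcl2 was 0.01 ± 0.33. The ranges of all 3 genes overlapped between the lightings, as did those of the other 6 members, and 0.00592% of all genes tested had ranges that did not.

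Bak1 had 8.59, 10.9 and 23.1 CPM under jet lag, against 7.97, 11.4 and 23.8 CPM under 12:12 lighting, a log2 fold change of -0.06 ± 0.14. Bid (-0.08 ± 0.09), Bad (0.00 ± 0.11), Bik (0.19 ± 0.22) and Bcl2l11 (0.01 ± 0.27) also had edgeR adjusted p-values of 0.999, as did Mcl1, Bcl2 and Bak1.

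Bmf showed the widest difference of the 9. It had 0.911, 2.04 and 4.79 CPM in jet lag livers, against 1.30, 3.30 and 10.1 CPM in 12:12 livers, and 8 of 12 jet lag libraries lay below the 12:12 median. In females the values were 1.00, 2.06 and 4.79 CPM under jet lag, against 1.30, 4.19 and 10.1 CPM under 12:12 lighting. In males they were 3.54, 0.975, 1.19 and 0.911 CPM in jet lag animals 5 to 8, against 1.37, 2.10 and 5.31 CPM in the 6 under 12:12 lighting. The groups overlapped in both sexes for Bmf and for the 8 other members, beside 0.172% of genes tested without overlap in females and 1.19% in males. The log2 fold change of -0.74 ± 0.30 (unadjusted p = 0.0221, edgeR adjusted p = 0.451) did not pass. The estimate was -0.78 ± 0.39 in females and -0.67 ± 0.51 in males, and without the 8 Cd79a-high libraries it was -0.62 ± 0.30 over both sexes. With a library left out it ran from -0.93 to -0.56 over both sexes. In females it ran from -0.95 to -0.49 (nearest 0 without 12:12 female 1). In males it ran from -1.27 without jet lag male 5 to -0.32 without 12:12 male 6, and from -1.29 to -0.0978 without the same libraries when the Cd79a-high ones were left out too.

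Within females 0 of the 9 members passed in edgeR, beside 0% of all genes tested, with none under an unadjusted p of 0.05 and 0 in DESeq2. Within males 0 of 9 passed, beside 0.0118% of all genes tested, with 1 under an unadjusted p of 0.05 and 0 in DESeq2. That one was Bcl2l1, with 34.0, 24.9, 41.0 and 44.6 CPM in jet lag males 5 to 8, against 25.7, 27.3 and 35.8 CPM in the 6 males under 12:12 lighting. Its log2 fold change in males was 0.34 ± 0.15 (unadjusted p = 0.0372, edgeR adjusted p = 0.486), and jet lag male 6 lay below every male under 12:12 lighting. The interaction of lighting and sex, female minus male response, passed for 0 of 9 members, beside 0% of all genes, with edgeR adjusted p-values from 0.814 to 0.969, none under an unadjusted p of 0.05 and 0 in DESeq2.

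**Figure D4:**
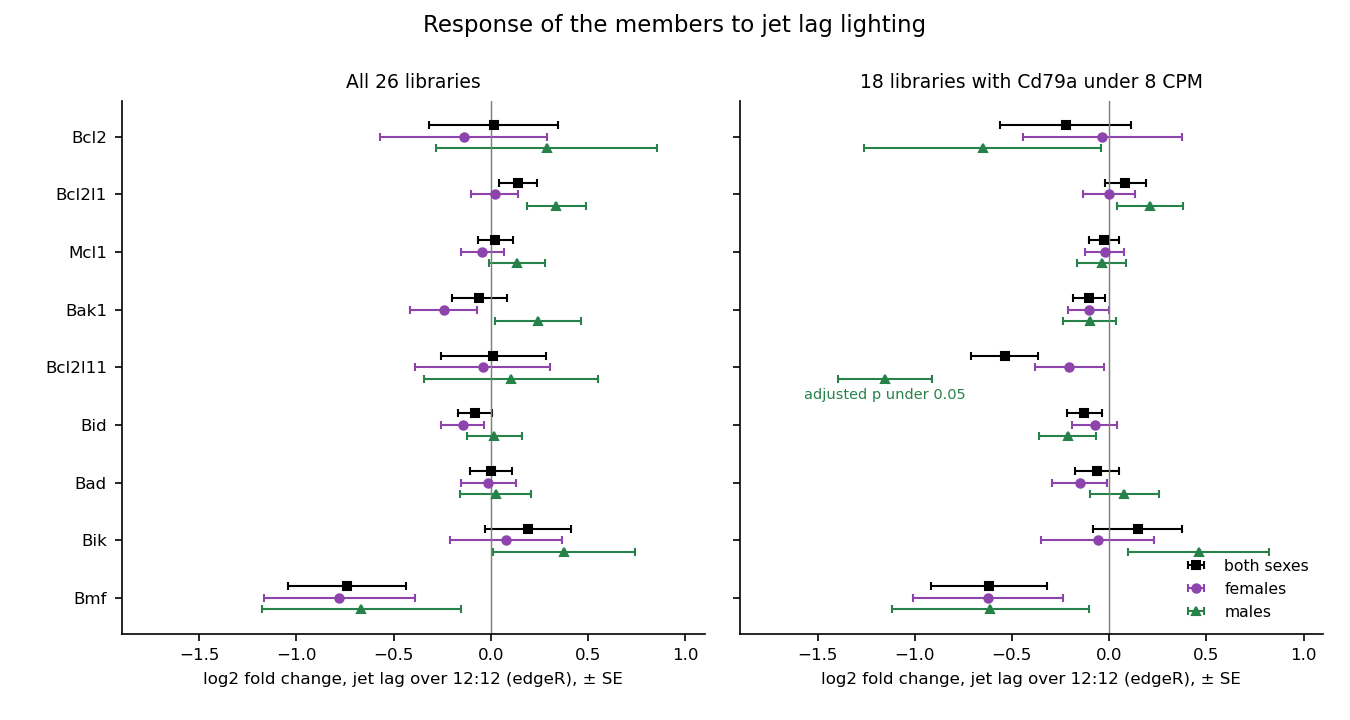
Log2 fold change of each member, jet lag over 12:12 lighting, from edgeR with its SE, in all 26 libraries and in the 18 with Cd79a under 8 CPM, for both sexes, females and males. Bmf lies near -0.7 in each sex in all 26 libraries, and the estimate for Bcl2l11 in males is 0.10 in the 26 and -1.15 in the 18.

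Bcl2l11 in males depended on 1 library. In jet lag males 5, 6 and 7 it had 0.983, 0.772 and 0.383 CPM (47, 38 and 18 counts), whereas jet lag male 8, the library with the most Cd79a of all, had 6.46 CPM (305 counts). The 12:12 males 1, 2, 4 and 6 had 1.48, 1.54, 1.39 and 1.81 CPM, and the Cd79a-high 12:12 males 3 and 5 had 2.26 and 2.58 CPM. The 3 jet lag males without much Cd79a were thus the lowest 3 of the 26 libraries, below every female and every 12:12 male. Over all 10 males the log2 fold change was 0.10 ± 0.45 (edgeR adjusted p = 0.940), and without jet lag male 8 alone it was -1.32 (edgeR adjusted p = 0.0554).

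When the 8 Cd79a-high libraries were left out, the fold change of Bcl2l11 in males was -1.15 ± 0.24 on the log2 scale (edgeR adjusted p = 0.0195), a level 55.1% lower in 3 jet lag males than in 4 males under 12:12 lighting. It was the 1 member of 9 to pass there, beside 1.33% of all genes tested and 0.475% that passed as lower. Among these 7 males the ranges of Bcl2l11 did not overlap, as in 9.89% of genes tested and, with jet lag lower, in 3.99%. With the DESeq2 test, which called 3.91% of genes, the adjusted p was 0.000477, and with the 7 males fitted alone the value was -1.16 with an edgeR adjusted p of 0.202. Leaving out each of the 7 in turn gave -1.36 to -0.89, and the call was lost without jet lag male 7 (-0.89, edgeR adjusted p = 0.0942).

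In the 11 females with Cd79a under 8 CPM, Bcl2l11 had 1.69, 1.81 and 2.07 CPM in 5 jet lag animals, against 1.46, 2.06 and 2.38 CPM in 6 under 12:12 lighting. These ranges overlapped, as did those of the other 8 members in these females, beside 1.47% of genes that did not. The log2 fold change in females was -0.20 ± 0.18 (edgeR adjusted p = 0.876), and the female minus male response was 0.95 ± 0.30 (edgeR adjusted p = 0.478), so a difference in response between the sexes was not established. Over both sexes without the 8 libraries Bcl2l11 had -0.54 ± 0.17 (edgeR adjusted p = 0.116), beside 2.32% of genes past the threshold. The DESeq2 test gave -0.52 (adjusted p = 0.0368), beside 4.73% of genes. In edgeR the other 8 members stayed short of the threshold without the 8 libraries over both sexes, in females (beside 0.0791% of genes past it) and in males.

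The marker sums of the 7 males overlapped. B-lineage markers summed to 66.6 to 112 CPM in the 3 jet lag males, against 50.5 to 103 CPM in the 4 under 12:12 lighting. Neutrophil markers summed to 1.21 to 3.93 CPM against 1.61 to 3.19 CPM, macrophage markers to 230 to 342 CPM against 254 to 411 CPM, and proliferation genes to 23.0 to 31.0 CPM against 25.3 to 29.6 CPM. Myc stood at 2.68 to 5.50 CPM against 2.94 to 22.4 CPM, and 12:12 males 2 (22.4 CPM) and 6 (20.3 CPM) lay above all 3 jet lag males. The part of Myc in the difference of Bcl2l11 was not tested.

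The genes most like each member over the 18 libraries with Cd79a under 8 CPM were taken as the 2 with the highest Spearman rho of CPM among 12276 or 12277 genes with a mean of at least 1 CPM. Values of one library share its total, and no p is given. Bcl2l11 ran with Acot3 and Arrdc4 (rho 0.893 each), Bmf with B930025P03Rik (0.928) and Mpdz (0.920), and Bak1 with Slc16a10 (0.903) and Gm12250 (0.876). Bad ran with the translation genes Eef1d (0.930) and Rpl32 (0.903), Mcl1 with Heatr6 (0.845) and Nup153 (0.841), and Bcl2l1 with 9030025P20Rik (0.847) and LOC102641516 (0.829). Bik ran with Rnf8 (0.831) and Eri2 (0.822), Bcl2 with Epm2a (0.845) and Ppp3cc (0.843), and Bid with Igf1os (0.781) and Gm2274 (0.746).

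The rest of the family was read from a list of 17 further genes, of which 12 passed the filter on low counts. Over both sexes 0 of the 12 passed for lighting in edgeR, 3 had an unadjusted p under 0.05, and 2, both higher under jet lag, passed in DESeq2, beside 1.69% of all genes there. They were Bbc3, which encodes the p53-induced BH3-only protein PUMA, and Bok, which encodes an effector relative of BAX. Bbc3 had 2.20, 6.70 and 9.99 CPM in jet lag livers, against 1.52, 3.32 and 6.60 CPM in 12:12 livers, a log2 fold change of 0.80 ± 0.21 (edgeR adjusted p = 0.0643, DESeq2 adjusted p = 0.0132). Bok had a log2 fold change of 0.67 ± 0.19 (edgeR adjusted p = 0.120, DESeq2 adjusted p = 0.0382). Without the 8 Cd79a-high libraries Bbc3 was 0.91 ± 0.22 (edgeR adjusted p = 0.0316), and it passed with Bnip3, which was lower and is named after its values were seen. These were 2 of 13 tested there, beside 2.32% of all genes. In edgeR without the same 8 libraries, 3 of 13 passed in males (Bbc3, Bok and, lower, Bnip3), beside 1.33% of all genes. In females 0 of 13 passed, beside 0.0791%, and the interaction passed for 0 of 13. Bbc3 had 7.30, 5.26, 8.23 and 2.20 CPM in jet lag males 5 to 8, against 1.52 to 2.90 CPM in 12:12 males. Its values in females were 4.06 to 9.99 CPM under jet lag, against 2.22 to 6.60 CPM.

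Downstream of the mitochondrion, 17 genes of the apoptosome, caspases and inhibitors of apoptosis were tested, and 0 passed for lighting in edgeR or in DESeq2, with 1 under an unadjusted p of 0.05. That was Fas, which encodes a death receptor, at 0.39 ± 0.13 (edgeR adjusted p = 0.227). Between the Cd79a-high libraries and the rest, 2 of the 17 did not overlap, beside 3.96% of all genes tested. Apaf1, which encodes the scaffold of the apoptosome, had 4.66, 7.59 and 14.5 CPM in the high libraries, against 1.08, 3.01 and 4.62 CPM in the rest. Its separation rests on jet lag female 2 (223 counts) against 12:12 female 8 (225 counts), a gap far inside counting error. Birc5, which encodes survivin and is a gene of dividing cells, had 1.42, 7.88 and 24.6 CPM against 0.188, 0.459 and 0.957 CPM. Of the 12 further BCL2 family genes 0 were without overlap, and the largest differences were those of Pmaip1, which encodes NOXA (0.186, 0.707 and 2.09 CPM against 0, 0.165 and 0.312 CPM), and of Bcl2a1b (0.952, 1.67 and 5.88 CPM against 0.305, 0.531 and 1.01 CPM). The counts of Bcl2a1b are uncertain, because its near-identical copies can share reads.

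In the authors' deposited table of differential expression, which gives 12:12 over jet lag and so runs the other way, 0 of the 9 members had an adjusted p under 0.05. The lowest there was 0.480, for Bmf at a log2 fold change of 0.69 in 12:12 over jet lag.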

How the data were processed

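Per the labels' protocols, liver RNA was made into stranded mRNA libraries on the DNBSEQ platform. The authors deposited expected counts per gene name, not normalized, in which 45.8% of cells held 0.015 for 0; these were set to 0, the 1.44% of cells that were not whole (tolerance 1e-06) were rounded, and the 36930 lines were summed to 36883 names. The submitters' processing notes name STAR, DESeq2 and mm10. The authors' deposited table of log2 fold changes and adjusted p-values was only set beside these results, and a normalized table was not used here. Genes were filtered with filterByExpr of edgeR 4.0.16 (count minimum of 10), scaled by TMM and tested with a quasi-likelihood F test, lighting plus sex over all 26 libraries, or a model of the 4 group means for each sex and their difference. P-values were adjusted over all genes by Benjamini and Hochberg, the SE is the size of the log2 fold change over the square root of F, and log2 CPM used a prior count of 2. DESeq2 1.42.0, its size factors, no filter, a Cd79a covariate, a replicate block and left-out libraries were tried as alternatives. On simulated counts of 16672 genes for lighting over both sexes the test recovered 76.5% of changes of 1 and 94.8% of changes of 2 on the log2 scale, with 3 false calls among 170. Libraries of a group were not copies (chi-square per degree of freedom of at least 31.5); each is 1 numbered animal in the labels, and p-values measure only the spread between these samples. Named genes were all 9 members, from 2 further lists those past the threshold or the 2 with the smallest p, those without overlap or the 2 with the largest difference in the Cd79a split, and the 2 genes most like each member. The members, lists and the limit of 8 CPM were chosen with earlier results of these data known. The Cd79a split gets no test because it rests on a measured value. A gene that the rule for named genes picked is not reported here.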

Additional observations from a re-analysis of the deposited data

Results flagged for a closer look

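In 9 of 36 pairs of member and group the highest library had a gap to its neighbour that was large against the range of its group (Dixon's 95% limit, which chance passes in about 1 group in 20). The pairs share libraries, and the share of flags over all genes was not computed. The number of flags is therefore not read as a trait of this family. Of these 9, 8 were libraries with Cd79a of 8 CPM or more. Jet lag male 8, with 144 CPM of Cd79a, was the highest of its 4 for Bcl2 (0.741 CPM, others at most 0.167), for Bcl2l11 (6.46 CPM, others at most 0.983), for Bid (12.2 CPM, others at most 7.17) and for Bak1 (23.1 CPM, others at most 10.5). In jet lag females, female 6 was highest for Bcl2l11 (4.92 CPM, others at most 2.43) and female 5 for Bak1 (19.5 CPM, others at most 13.4). In 12:12 females, female 7 was highest for Bcl2 (0.916 CPM, others at most 0.386) and for Bcl2l11 (4.07 CPM, others at most 2.52). The remaining one was Bmf in jet lag male 5, a library with 1.84 CPM of Cd79a, at 3.54 CPM where the other 3 jet lag males had 0.911 to 1.19 CPM. The part of B-lineage RNA in these values was not tested.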

How the results depend on the processing

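Over both sexes 132 genes passed the threshold, and 274 did with DESeq2, 381 without the Cd79a-high libraries, 702 in DESeq2 without them, 280 with log2 Cd79a as a covariate, and 70 to 244 when each replicate was left out (lowest without jet lag female 3, highest without jet lag male 8). In females 0 passed, against 55 with DESeq2, 13 without the Cd79a-high libraries, 28 with the covariate, 19 with the replicate block, 14 in female libraries alone and 0 to 13 with a replicate left out. In males 2 passed, against 0 with DESeq2 size factors, 94 with DESeq2, 219 without the Cd79a-high libraries, 227 and 592 with DESeq2 size factors and DESeq2 on top, 61 with the covariate, 4 with the replicate block, 0 in male libraries alone, 87 in low-Cd79a males alone, 0 to 106 with a replicate left out, and 102 to 423 with 1 male left out beside the Cd79a-high libraries. Members past the threshold stayed at 0 apart from Bcl2l11, the 1 member past it in males without the Cd79a-high libraries (also with DESeq2 size factors, with DESeq2, and in 6 of 7 fits that left out 1 male more, range 0 to 1) and in DESeq2 over both sexes without them.

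For single members in both sexes, signs turned without the Cd79a-high libraries for Bcl2 (-0.22, also in DESeq2), Mcl1 (-0.0283, in DESeq2 -0.0253), Bcl2l11 (-0.54, in DESeq2 -0.52) and Bad (-0.0622, in DESeq2 -0.0572). They turned with the covariate for Bcl2 (-0.0734) and Bcl2l11 (-0.20), with the replicate block for Bcl2 (-0.21) and Bcl2l11 (-0.33), and without a filter for Bad (-0.0018). With a replicate left out Bcl2 ran from -0.35 to 0.20, Mcl1 from -0.0237 to 0.0822, Bcl2l11 from -0.42 to 0.12, Bad from -0.0869 to 0.0477 and Bak1 from -0.19 to 0.0206. In males Bcl2l11 turned to -1.15 without the Cd79a-high libraries (-1.15 with DESeq2 size factors, -1.14 in DESeq2), -1.16 in low-Cd79a males alone, -0.37 with the covariate (adjusted p = 0.626) and -1.27 with the replicate block (adjusted p = 0.887), and it ran from -1.32 to 0.43 with a replicate left out and from -1.36 to -0.89 with 1 male left out beside the Cd79a-high libraries. Bcl2l1 in males turned to -0.0735 with the block, and ran from 0.17 to 0.43 with a replicate left out and from -0.037 to 0.36 with 1 male left out beside the Cd79a-high libraries. In males only numbers 5 and 6 occur under both lightings. All male estimates with the block therefore rest on the animals of these numbers, and jet lag male 8 has no part in them. The interaction of Bcl2l11 turned to 0.95 without the Cd79a-high libraries, 0.26 with the covariate and 1.18 with the block, and ran from -0.47 to 1.29. For the other 22 pairs of member and comparison 105 of 777 values changed sign and none passed. The Cd79a split separated 1 member in females alone and 2 in males alone. For Bcl2l1, Bak1, Bcl2l11, Bad and Bmf, 11 differences of the median log2 CPM under other settings moved by at least the standard deviation of the low-Cd79a libraries. The other 144 did not. The cause of these changes was not tested.

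The replicate numbers do not pair the animals by the labels: of 10 pairs 6 had a correlation over 0.1 (range -0.384 to 0.602) and 1 of 10 correlated best with its own number, and the replicate block gave 111 genes over both sexes. The fits on top of the left-out Cd79a-high libraries were chosen after seeing the data. Depth limits Bcl2, with 3 to 43 counts.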
